A study of Mus musculus with 3 samples.

Results

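The 34 genes described here encode proteins that copy DNA or carry cells through mitosis. They were chosen by symbol, out of 32285 genes in the count tables, and all 34 were found. C57BL/6 mice carried subcutaneous B16F10 melanomas, a mouse melanoma line. On day 9 after inoculation they received, by vein, Pmel-1 cytotoxic T lymphocytes (CTLs), which recognise the melanoma antigen gp100 and had been activated in culture. CD45+ cells, the immune cells of the tumour, were profiled with a 3′ single-cell kit at days 3, 7 and 14 after transfer, in 1 library per day that pooled equal cell numbers of 3 mice. All 3 groups carried the tumour and the transferred cells, and untreated mice are not analysed here. Day, tumour age and library cannot be told apart, and no value below has a replicate. All intervals are 95% intervals of counting error only, exact binomial for shares, Poisson for sums and conditional binomial for ratios.

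Cells that divide first switch on the enzymes that make deoxynucleotides and the machinery that unwinds and copies DNA in S phase. They then switch on the kinases, cyclins, motors and ubiquitin ligase parts that condense, attach and separate chromosomes in G2 and M phase. E2F proteins drive much of the S phase group, and the DREAM and MuvB complexes control many G2/M genes through CHR elements. CCAAT boxes are a separate element of many G2/M promoters. In tumours these genes are known as marks of expanding T cells, of self-renewing macrophages and of dendritic cell precursors. The S set held 13 members: Pcna, Mcm2, Mcm3, Mcm4, Mcm5, Mcm6, Mcm7, Tyms, Rrm1, Rrm2, Tk1, Dut and Gmnn. The G2/M set held the other 21, with Stmn1 counted there.

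Promoters of 29 of the 34 members were found in the RefSeq promoter table for GRCm38.p6, the patch release of the mm10 build the files use. The 250 bases before each start were searched on both strands for the CCAAT box (CCAAT), the CHR (TTTGAA or TTCGAA) and an E2F site (TTTCCCGC, TTTCGCGC, TTTGCCGC or TTTGGCGC). Matches may overlap each other. A CCAAT box was found in 16 of 18 G2/M promoters and 8 of 11 S promoters, against 33.8% of all 32851 promoters. At least 2 CCAAT boxes stood in 14 of the 18 G2/M promoters, against 10.1% of all. A CHR was found in 9 of 18 G2/M and 2 of 11 S promoters, against 17.1% of all. The E2F letters were found in 1 of 18 G2/M and 3 of 11 S promoters, against 1.86% of all. These matches are letters in a window and not shown to be bound.

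The 4 G2/M stretches below are shown because each pairs CCAAT boxes with a CHR upstream of a gene whose product drives or ends mitosis. Capitals mark the matched motifs, the E2F letters of Cdk1 among them, and each line runs 5′ to 3′ from 170 bases before the RefSeq start. GENCODE M21 places the start further upstream in 3 of them, so that the last 25 bases of the Cdk1 and Ube2c stretches and the last 9 of Cdc20 fall inside its gene.
Cdk1, chr10:69352914-69353082, minus strand: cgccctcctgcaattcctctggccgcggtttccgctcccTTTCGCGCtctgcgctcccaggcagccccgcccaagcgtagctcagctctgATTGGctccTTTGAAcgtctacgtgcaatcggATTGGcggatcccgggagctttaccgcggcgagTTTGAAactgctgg
Ccnb2, chr9:70421555-70421724, minus strand: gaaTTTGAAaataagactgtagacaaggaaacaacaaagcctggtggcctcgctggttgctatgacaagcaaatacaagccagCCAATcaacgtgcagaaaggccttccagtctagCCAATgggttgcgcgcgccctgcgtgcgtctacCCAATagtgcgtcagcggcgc
Cdc20, chr4:118437344-118437513, minus strand: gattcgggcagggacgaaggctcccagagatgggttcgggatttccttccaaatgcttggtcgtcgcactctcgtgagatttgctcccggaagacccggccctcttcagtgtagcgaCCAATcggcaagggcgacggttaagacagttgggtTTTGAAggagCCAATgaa
Ube2c, chr2:164769759-164769922, plus strand: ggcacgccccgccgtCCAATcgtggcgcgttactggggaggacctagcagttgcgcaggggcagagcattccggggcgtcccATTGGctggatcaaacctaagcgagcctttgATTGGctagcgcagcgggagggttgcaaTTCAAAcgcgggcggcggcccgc
In Cdk1, the mitotic kinase, CHRs began 71 and 15 bases before the start and CCAAT boxes 80 and 48 bases before it. In Ccnb2, a B-type cyclin, the CCAAT boxes began 87, 54 and 21 bases before the start. Its CHR match began 167 bases before the start, upstream of these boxes and farther out than those of Cdk1.

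The S stretches of Mcm5 and Mcm6, subunits of the replicative helicase, are shown for their paired E2F letters. In each, a match on one strand overlaps a match on the other, and Mcm6 holds a further match 47 bases before the start.
Mcm5, chr8:75109339-75109508, plus strand: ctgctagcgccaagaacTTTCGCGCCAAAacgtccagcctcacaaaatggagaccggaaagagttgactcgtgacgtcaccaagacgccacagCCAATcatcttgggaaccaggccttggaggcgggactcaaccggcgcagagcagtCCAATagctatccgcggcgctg
Mcm6, chr1:128359706-128359875, minus strand: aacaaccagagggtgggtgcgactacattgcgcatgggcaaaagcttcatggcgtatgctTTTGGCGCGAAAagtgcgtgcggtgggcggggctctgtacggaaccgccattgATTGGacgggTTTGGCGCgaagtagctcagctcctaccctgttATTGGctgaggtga

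Cells were taken as barcodes of at least 1500 UMIs (unique molecular identifiers, 1 per captured RNA molecule), which left 2775, 2600 and 2902 barcodes at days 3, 7 and 14. Their median depth was 9515, 9212 and 9962 UMIs. Gates were set on UMIs of marker genes. CD8 T barcodes had at least 2 UMIs of Cd8a and Cd8b1 and were split by a UMI of the T cell receptor segment Trbv14. CD4 T barcodes had Cd4 and Cd3e, and NK barcodes at least 2 UMIs of Ncr1 and Klrb1c and none of Cd3d or Cd3e. Type 1 dendritic cells (cDC1) had at least 2 UMIs of Xcr1 and Clec9a, type 2 (cDC2) at least 2 of Cd209a, and the macrophage gates at least 5 of Pf4 or of Arg1. Pmel-1 cells use a transgenic receptor whose beta chain carries Trbv14, but host T cells can use this segment too, and a barcode with no Trbv14 UMI can still be a transferred cell, since a 3′ kit reads these segments in part. All fixed markers of each gate were detected in it in each library, some in a minority of its barcodes. At days 3, 7 and 14, Flt3 was found in 26.4%, 29.7% and 29.5% of cDC2 barcodes, and Ccr2 in 86.2%, 87.9% and 86.3%. Cd40lg was found in 8.77%, 36.7% and 27.0% of CD4 T barcodes, and C1qa in 50%, 35.1% and 42.8% of Arg1 macrophages. Gate names are thus names of marker cuts. Melanoma markers summed to at most 1.46 CPM (UMIs per 1000000 UMIs of the gate) in T and NK gates and to 5.87 to 11.7 CPM in the macrophage gates. The macrophage gates overlap, sharing 87, 51 and 222 barcodes, so their values are not independent.

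A barcode was called dividing when 2 or more of Mki67, Top2a, Cdk1 and Ccnb1 were detected. Of all barcodes, 9.37% were dividing at day 3, 9.19% at day 7 and 10.0% at day 14. CD8 T barcodes made up 70.0%, 68.2% and 49.8% of the dividing ones in turn, and 9.62%, 10.0% and 16.2% stood in no gate.

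The libraries shared 677 barcode sequences, and 642 of these had a second copy under 1500 UMIs. The copy with most UMIs stood apart: at days 3, 7 and 14 there were 116, 162 and 76 such barcodes, with a median of 43448, 32569 and 43044 UMIs, and 69.8%, 67.3% and 68.4% of them were dividing. Among barcodes of a single library 6.56%, 5.08% and 8.35% were dividing. Leaving out every shared barcode therefore removes many of the deepest dividing cells, and most of them at day 7. Results are given with all barcodes and without the shared ones. Leaving out only the smaller copies moved none of the 16 share ratios beyond its interval.

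Neutrophils, which leave the bone marrow after their last division, and migratory dendritic cells served as background. Dividing barcodes were 1 of 59, 0 of 67 and 2 of 108 neutrophils, at median depths of 2304, 2468 and 2334.5 UMIs. With 3 counts taken as the most a 0 allows, the 0 at day 7 allows a share of up to 4.48%, which is approximate and not the exact interval. Migratory dendritic cells (Fscn1 and Ccr7) gave 3 of 39, 3 of 19 and 4 of 52 at medians between 11017 and 15551 UMIs. At days 3 and 7, 2 of the 3 in each library carried 2 or more UMIs of the T cell genes Cd3d, Cd3e and Cd3g. The dividing share of migratory dendritic cells was above those of NK and cDC2 barcodes at day 3. At day 7 it was above those of NK, cDC2 and both macrophage gates, and at day 14 above that of Arg1 macrophages alone. Neutrophil barcodes were shallower than those of the other gates, and the part of free RNA and doublets in any share was not tested.

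**Figure D1:**
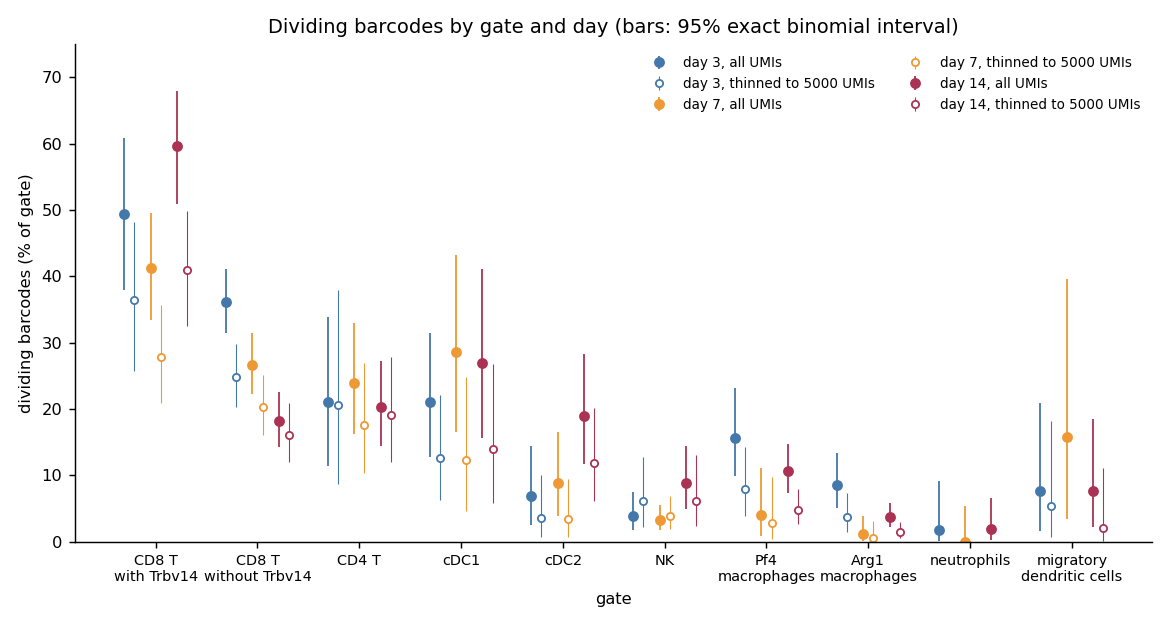
Share of dividing barcodes (y axis, percent of the gate) in each gate and library, with 95% exact binomial intervals. Filled points use all UMIs and open points barcodes thinned to 5000 UMIs, drawn where at least 20 barcodes remained. CD8 T barcodes with Trbv14 are highest in each library, and neutrophils stay under 2%.

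CD8 T barcodes had the largest share of dividing cells, 38.3% (182 of 475) at day 3, 31.0% (163 of 526) at day 7 and 29.7% (145 of 488) at day 14. The barcodes with and without Trbv14 went different ways after day 7. With Trbv14, 49.4% (39 of 79), 41.3% (64 of 155) and 59.6% (81 of 136) were dividing, which put day 14 1.44-fold above day 7 (1.03 to 2.03). Without Trbv14, 36.1% (143 of 396), 26.7% (99 of 371) and 18.2% (64 of 352) were dividing, a decline of 1.35-fold (1.04 to 1.77) to day 7 and of 1.47-fold (1.06 to 2.04) from there to day 14. Day 14 was 1.99-fold below day 3 (1.47 to 2.71), a log2 ratio of −0.99, or −0.63 after thinning (−1.19 to −0.09). After thinning each barcode to 5000 UMIs the shares were 36.4%, 27.8% and 40.9% with Trbv14 and 24.9%, 20.3% and 16.01% without, and the changes from day 7 to day 14 in both gates and from day 3 to day 7 without Trbv14 (a log2 ratio of −0.29, from −0.78 to 0.19) then had intervals that included no change. Thinned to 1500 UMIs, the log2 ratio with Trbv14 from day 7 to day 14 changed sign, to −0.12 from 0.53. Leaving out the shared barcodes gave 38.9%, 23.3% and 52.7% with Trbv14 and 28.5%, 17.4% and 16.4% without. Without Trbv14, a Cd3 UMI was found in 142 of 143, 99 of 99 and 64 of 64 dividing barcodes. Among the others of that gate it was found in 223 of 253, 266 of 272 and 260 of 288. The part of barcodes without Cd3 in the decline was not tested.

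The share with Trbv14 was 1.37-fold that without at day 3 (0.934 to 1.96), 1.55-fold at day 7 (1.11 to 2.14) and 3.28-fold at day 14 (2.33 to 4.62). After thinning, the ratios were 1.46-fold (0.918 to 2.27), 1.37-fold (0.909 to 2.04) and 2.55-fold (1.69 to 3.88), and of the 3 only day 14 had an interval above 1. When the gates too were set on thinned barcodes the ratios were 0.692, 0.946 and 1.44 (0.729 to 2.63 at day 14), and each interval included 1. Depth moves with this result: barcodes with Trbv14 had a median of 26176, 19389 and 25920 UMIs, against 12730, 11565 and 8880 without. Between 5000 and 15000 UMIs at day 14, 5 of 27 barcodes with Trbv14 and 14 of 198 without were dividing, 18.5% (6.3 to 38.1) against 7.07% (3.92 to 11.6). At 15000 to 30000 UMIs the shares were 51.0% and 37.0%, and above that 91.1% and 79.3%. At day 3 the order in the same 3 bins was the reverse, with 44.4% against 52.4% at 15000 to 30000 UMIs. Barcodes without Trbv14 that showed another beta segment had medians of 26732, 20594 and 9648 UMIs and were dividing in 23 of 34, 17 of 39 and 8 of 22 cases.

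**Figure D2:**
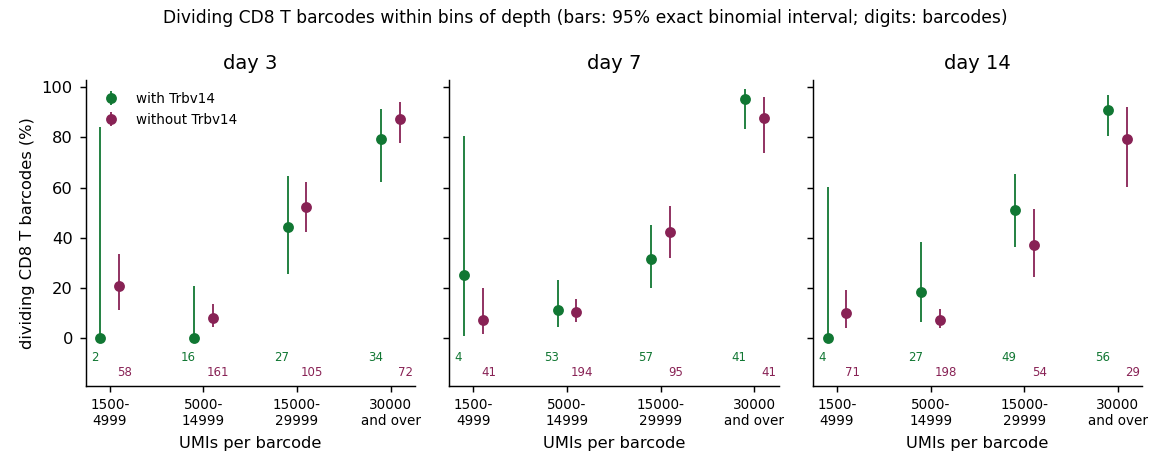
Share of dividing CD8 T barcodes (y axis, percent) in 4 bins of UMIs per barcode (x axis), with and without a Trbv14 UMI, with 95% exact binomial intervals; digits under the points count barcodes. From 5000 UMIs up the share rises with depth in each library, and at day 14 the points with Trbv14 lie above the others in the 3 deeper bins with intervals that overlap.

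Within the CD8 T gate the 30 members that the call did not use were all at least 1.5-fold higher in dividing than in other barcodes in each library, against 13.6%, 15.7% and 17.0% of all genes. Their median log2 ratio was 3.05, 2.96 and 2.86. Dividing barcodes held 62.0%, 52.9% and 55.0% of the UMIs of the gate, so CPM rather than counts were compared. These genes belong to 1 known programme and the call rests on 4 of their kind, so the ratios describe how closely each member follows the call.

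Members differed widely in this ratio, within the S and the G2/M set alike. Mcm6, Mcm2 and Mcm4, subunits of the helicase, stood at its low end. Mcm6 was at 181, 216 and 215 CPM in dividing barcodes at days 3, 7 and 14 and at 85.6, 78.7 and 90.1 CPM in the others, a ratio of 2.12, 2.75 and 2.39. Mcm2, Mcm4 and Pcna, the clamp that holds the polymerase on DNA, also stayed under 3.6-fold in each library. Rrm2, the regulated subunit of ribonucleotide reductase, was the S member that followed the call most closely. It was at 204.5, 232.5 and 186 CPM in dividing barcodes and at 5.75, 6.42 and 3.16 CPM in the others, whereas its partner Rrm1 differed by 6.08-fold, 7.06-fold and 7.02-fold.

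Of the G2/M members, Plk1, the kinase that acts from mitotic entry to exit, was at 57.8, 46.3 and 50.9 CPM in dividing barcodes and at 0.821, 0.918 and 0.263 CPM in the others. Between 98.3% and 99.6% of its UMIs lay in dividing barcodes. Ccna2 (cyclin A2), Bub1 (a spindle checkpoint kinase) and Nusap1 (a spindle protein) were as tight, each with at least 97.5% of UMIs in dividing barcodes. Cenpa, the histone H3 variant of centromeres, was at 294, 342 and 370 CPM against 86.5, 113 and 111 CPM, only 3.04-fold to 3.40-fold apart. Hmgb2, a chromatin protein, was detected in 83.3%, 89.5% and 88.0% of the barcodes that were not dividing. Ccnb2 was 9.73-fold apart at day 3 and 5.49-fold and 5.72-fold later, while Ccnb1 was used by the call.

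**Figure D3:**
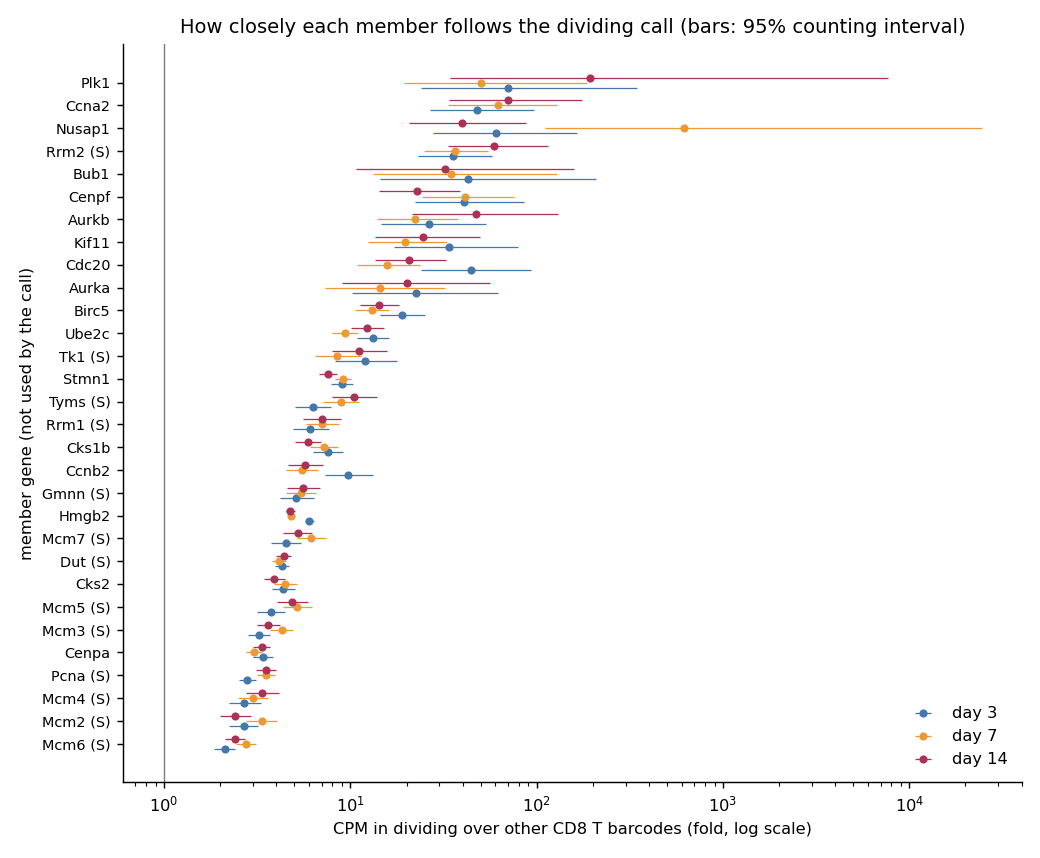
Ratio of CPM in dividing over other CD8 T barcodes (x axis, log scale) for the 30 members not used by the call, ordered by their lowest library, with 95% counting intervals. Mcm6 is lowest at 2.12 to 2.75, and the long intervals of Plk1 and Nusap1 rest on single UMIs in the barcodes that were not dividing.

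Among 28 further S genes and 37 further G2/M genes, at least 27 and 36 were higher in dividing CD8 T barcodes in each library. Of 40 regulators of the cycle, 23 were higher in each library, and 7, 5 and 7 were lower, against 14.8%, 13.2% and 16.3% of all genes. The non-members most tied to the call were Pbk, Hmmr, Kif2c, Kif4, Ska1, Hist1h1b, Nuf2, Pimreg, Shcbp1 and Spag5. Pbk, a mitotic kinase, was 130-fold, 54.0-fold and 124-fold higher in dividing barcodes, and Hmmr, a spindle protein, 81.1-fold, 58.6-fold and 49.9-fold.

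Among dividing CD8 T barcodes, 88.5%, 86.5% and 86.9% had 2 or more of the S genes Tyms, Rrm2, Mcm5 and Tk1, and 66.5%, 62.0% and 70.3% had 2 or more of the mitotic genes Cdc20, Plk1, Aurka and Ube2c. After thinning to 5000 UMIs the S call was met by 56.5%, 61.0% and 57.2% and the mitotic call by 34.1%, 35.2% and 39.9%. Among the other CD8 T barcodes the mitotic call was met by 1.71%, 3.58% and 2.62%. Dividing barcodes without Trbv14 met the S call in 86.7%, 87.9% and 76.6% of cases, with overlapping intervals. Within dividing CD8 T barcodes S members summed to 2730, 2859 and 2768 CPM and G2/M members to 6030, 6646 and 5984 CPM.

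**Figure D4:**
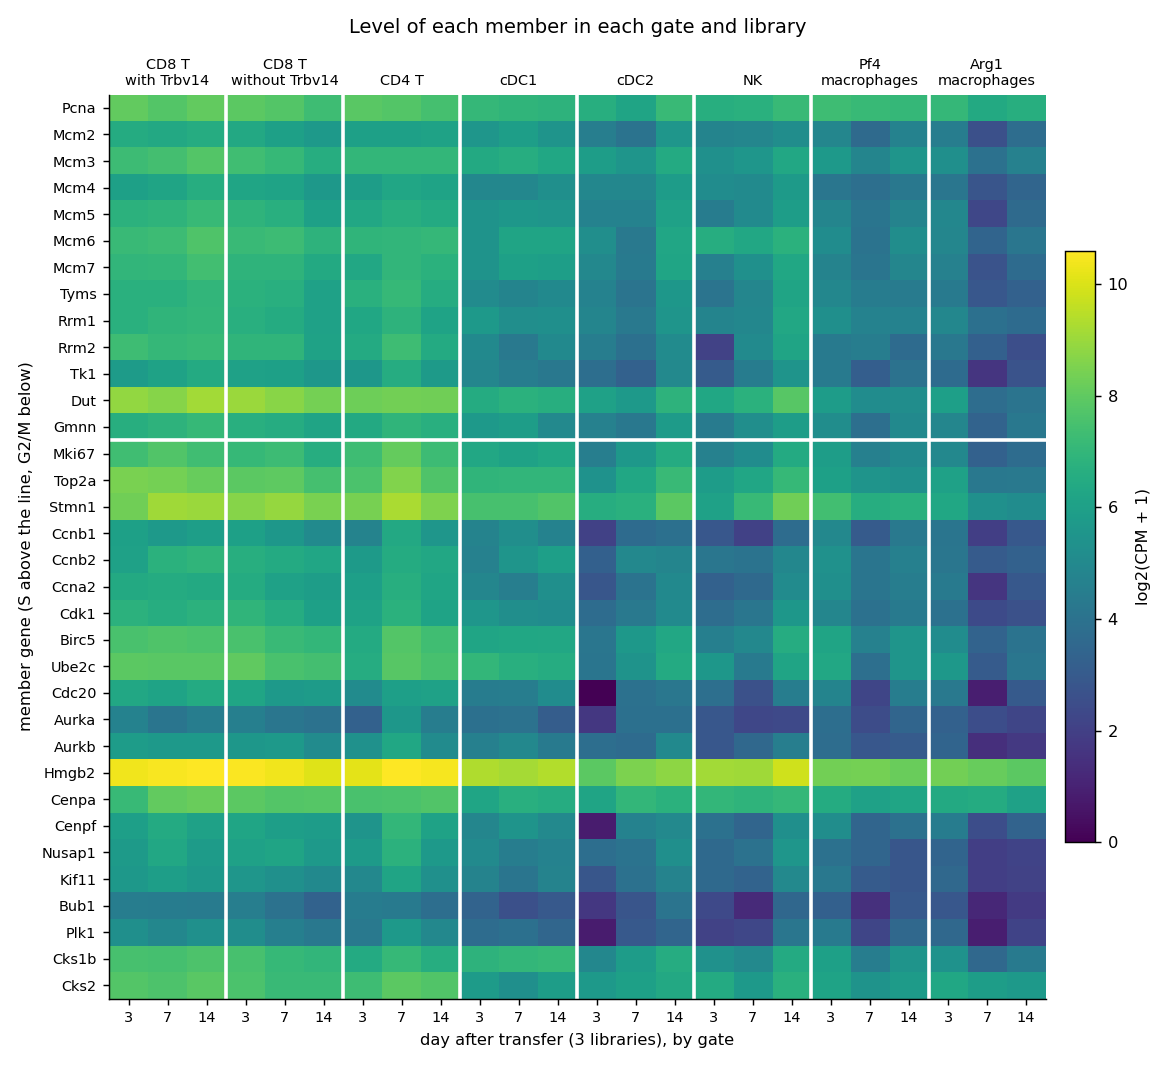
Level of each member as log2(CPM + 1) (colour) in 8 gates at days 3, 7 and 14 (columns), with S members above the line and G2/M members below. Columns may be compared along a row, since levels of different genes depend on capture as well. For each member the brightest of these columns is a T cell gate.

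Between libraries, a member was called higher or lower in a gate when its CPM changed by at least 1.5-fold with an interval excluding 1, among genes with at least 20 UMIs. The share of all tested genes that met this rule is given beside the first count of members in each comparison, and counts without the shared barcodes have their own. Intervals of single members and of set sums are too narrow where dividing cells, few in some gates, hold most of the UMIs, as the next paragraphs record.

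In CD8 T barcodes with Trbv14, 4 members were higher and 1 lower at day 7 than at day 3, against 10.3% and 15.4% of all genes. The higher count was close to that share and the lower one under it, so neither sets the members apart. Stmn1, a microtubule regulator, was at 316, 544 and 514 CPM at days 3, 7 and 14, and its day 7 level was 1.72-fold that of day 3 (1.58 to 1.88). Cenpa was at 141, 266 and 285 CPM, Ccnb2 at 65.8, 108 and 120 CPM, and Nusap1 at 53.3, 81.2 and 54.8 CPM. Aurka, the centrosome kinase, was the lower member, at 24.998, 16.3 and 21.8 CPM, and lost its call under TMM scaling. From day 7 to day 14 no member was higher or lower, against 6.53% and 5.9% of all genes. S members summed to 1934, 1888 and 2365 CPM, with day 14 at 1.25-fold day 7 (1.21 to 1.29), and G2/M members to 3825, 4380 and 4408 CPM. At days 7 and 14 dividing barcodes held 86.8% and 91.3% of the S UMIs, and the interval leaves out the spread between cells. With the shared barcodes left out, 28 members were higher at day 14 than at day 7, against 8.77% of all genes, and 12 lower at day 7 than at day 3, against 16.2%.

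In CD8 T barcodes without Trbv14 members were lower at the later day in each comparison where any was called. At day 7 none was higher and 1, Plk1, was lower than at day 3, against 4.9% and 10.9% of all genes, and under TMM scaling, which corrects the totals for shifts of many genes, Plk1 lost this call. At day 14, 5 members were lower and none higher than at day 7, against 4.33% and 7.13% of all genes. The 5 were Mki67, the marker of cells outside G0; Mcm5; Tyms, which makes thymidylate; Rrm2; and Bub1. Rrm2 was at 120, 121 and 68.8 CPM, and day 14 was 1.76-fold below day 7 (1.54 to 2.03). Mki67 was at 136, 151 and 97.1 CPM, 1.56-fold lower (1.39 to 1.76). Over the whole span from day 3 to day 14, 15 members were lower and none higher, against 9.38% and 5.1% of all genes. Under TMM scaling 9 were lower, and at a 2-fold threshold 1 was, with no share of all genes given for these rules. Cdk1 was at 120, 92.4 and 64.2 CPM, and Plk1 at 35.7, 22.5 and 17.9 CPM. Set sums were 1960, 1741 and 1270 CPM for S and 4068, 3668 and 3009 CPM for G2/M members, so that from day 7 to day 14 the log2 ratio was −0.46 for S and −0.29 for G2/M members. Without the shared barcodes these ratios were −0.08 and 0.29, no member was lower and 9 were higher, against 4.61% and 7.7% of all genes. That step cut the dividing barcodes from 99 to 56 at day 7 and from 64 to 55 at day 14. It thus lowers day 7 more than day 14 by itself, and what the decline rests on was not tested. Without the shared barcodes 12 members were lower at day 7 than at day 3, against 12.6% of all genes. From day 3 to day 14, 5 were lower, against 6.5%.

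Regulators were read in the same gates. With Trbv14, 6 of 38 tested were higher and 5 lower at day 7 than at day 3, against 10.3% and 15.4% of all genes. Cdkn3, a phosphatase that acts on cyclin-dependent kinases, was 2.56-fold higher at day 7 (1.78 to 3.77), and Cdkn1a, which encodes the inhibitor p21, was 4.23-fold lower (3.36 to 5.36), at 119, 28.2 and 49.5 CPM. Cyclin D1 (Ccnd1) was at 9.17, 0.552 and 14.7 CPM with Trbv14 and at 39.7, 17.6 and 45.1 CPM without. The 8 macrophage markers moved the same way in these gates, summing to 1364, 101 and 811 CPM with Trbv14 and 1204, 403 and 1500.5 CPM without, and their part in the Ccnd1 and Cdkn1a values was not tested. Without Trbv14, Klf2, a transcription factor of resting T cells, was at 144, 140 and 379 CPM, and day 14 was 2.70-fold above day 7 (2.48 to 2.94).

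CD4 T barcodes were dividing in 21.1% (12 of 57), 23.9% (26 of 109) and 20.2% (33 of 163), with ratios between days whose intervals included 1. Foxp3, the factor of regulatory T cells, was detected in 47.4%, 30.3% and 36.2% of the gate. Even so, 21 of 34 members were higher and none lower at day 7 than at day 3, against 5.85% and 9.11% of all genes, and 14 were lower and none higher at day 14 than at day 7, against 4.65% and 4.71%. Of the 21, 18 were G2/M members. Mki67 was at 157, 270 and 153 CPM and Stmn1 at 345, 613 and 373 CPM. A single barcode held 14.5%, 14.4% and 5.78% of the S UMIs, and without the shared barcodes 8 members were higher at day 7 than at day 3, against 5.64% of all genes. From day 7 to day 14, 2 were then higher and 2 lower, against 6.19% and 4.51%, so the one-way fall was lost.

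NK barcodes were dividing in 3.85% (8 of 208), 3.24% (13 of 401) and 8.86% (14 of 158), and day 14 was 2.73-fold day 7 (1.19 to 6.32). After thinning the log2 ratio was 0.66 (−1.06 to 2.22), against 1.45 before, and without the shared barcodes the shares were 3.85%, 2.29% and 8.92%. The gate excludes Cd3d and Cd3e, and a Cd3g UMI was found in 0 of 8, 0 of 13 and 4 of 14 dividing NK barcodes and in 6 of 144 others at day 14. The part of T cell RNA in the rise was not tested. From day 7 to day 14, 28 of 32 tested members were higher and none lower, against 3.5% and 5.48% of all genes, and without the shared barcodes 28 were higher, against 3.97%. The members' median log2 ratio was 1.09, against −0.08 over all genes. Birc5 (survivin), of the chromosomal passenger complex, was at 22.5, 30.0 and 93.8 CPM, and day 14 was 3.13-fold day 7 (2.35 to 4.18). Ube2c, which hands ubiquitin to the anaphase-promoting complex, was at 47.5, 19.6 and 72.6 CPM, lowest at day 7. Mcm6 was at 97.3, 80.3 and 107 CPM and Cenpa at 129, 117 and 132 CPM, and neither met the rule.

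From day 3 to day 7 NK members moved both ways: 7 of 30 were higher and 3 lower, against 3.27% and 5.1% of all genes. The 7 were Stmn1 and the S members Mcm5, Mcm7, Tyms, Rrm2, Tk1 and Gmnn, and the 3 were Ube2c, Cdc20 and Cks2, all of the G2/M set. Rrm2 had 4 UMIs at day 3 and 96 at day 7. When shared barcodes were left out 1 was higher and 8 were lower, against 3.14% and 4.92% of all genes. That step took 8 barcodes from day 7 and 0 from day 3, and what the pattern rests on was not tested. S members summed to 491, 622 and 1112 CPM and G2/M members to 1149, 1147 and 2254 CPM. Without Hmgb2 and Stmn1 the G2/M sum was 525, 465 and 1027 CPM. Its log2 ratio from day 3 to day 7 was then −0.18 (−0.31 to −0.04). One barcode held 11.9%, 10.1% and 13.7% of the S UMIs, and leaving out the top barcode of each library left both NK set ratios from day 7 to day 14 within their intervals. Ccne1 (cyclin E1), which acts at S phase entry, was 6.84-fold higher at day 14 than at day 7 (3.11 to 16.6).

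cDC1 barcodes, which prime CD8 T cells, were dividing in 20.99% (17 of 81), 28.6% (14 of 49) and 26.9% (14 of 52), with no ratio whose interval excluded 1. Members were steady: 3 higher and 1 lower at day 7 than at day 3, against 4.29% and 8.92% of all genes, and 3 higher and 1 lower at day 14 than at day 7, against 6.24% and 4.3%. Mki67 was at 81.0, 68.0 and 79.0 CPM. Of the 49 barcodes at day 7, 23 were shared between libraries, and without them 7.69% (2 of 26) were dividing. In their absence 17 members were lower at day 7 than at day 3, against 10.7% of all genes, and 18 were higher at day 14 than at day 7, against 6.61%. Dividing cDC1 barcodes with 2 or more Cd3 UMIs numbered 2, 1 and 5, and without such barcodes the shares were 19.2%, 27.7% and 20.5%.

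cDC2 barcodes, which prime CD4 T cells, were dividing in 6.90% (6 of 87), 8.79% (8 of 91) and 18.9% (18 of 95), and day 14 was 2.75-fold day 3 (1.04 to 8.45) and 2.16-fold day 7 (0.892 to 5.73). After thinning, day 14 stood 1.74 above day 3 on the log2 scale, with an interval (−0.18 to 4.23) that included no change. From day 7 to day 14, 25 of 34 members were higher and none lower, against 5.52% and 5.68% of all genes, among them all 13 S members, and without the shared barcodes 31 were higher, against 6.17%. Markers of other cell types were also found in dividing cDC2 barcodes, whose depth was not matched to that of the others. At days 3, 7 and 14, 2 or more C1q UMIs were found in 2 of 6, 0 of 8 and 9 of 18 dividing barcodes. At day 14 they were found in 7 of 77 others. Whether this C1q RNA came from other cells was not tested. A melanoma marker UMI was found in 3 of 18 dividing and 0 of 77 other barcodes at day 14, and 2 or more Cd3 UMIs in 1, 3 and 2 dividing barcodes. The part of these markers in the result was not tested. Mcm6 was at 37.0, 18.7 and 77.0 CPM, and day 14 was 4.12-fold day 7 (2.72 to 6.43). S members summed to 476, 349 and 880 CPM and G2/M members to 652, 1119 and 1660 CPM. From day 3 to day 7, 14 of 32 members were higher and 1, Mcm6, was lower, against 4.26% and 3.25% of all genes. All 14 were G2/M members, such as Ube2c at 16.2, 42.8 and 88.1 CPM, and without the shared barcodes none was higher and 11 were lower, against 3.51% and 4.4%. At day 3 Cdc20 had no UMI and Cenpf 1 UMI in this gate. The top barcode held 22.6%, 20.8% and 11.2% of the G2/M UMIs.

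Both macrophage gates had their lowest shares at day 7. Pf4 macrophages were dividing in 15.6% (20 of 128), 3.95% (3 of 76) and 10.6% (32 of 301), a 3.96-fold fall to day 7 (1.17 to 20.8). Arg1 macrophages were dividing in 8.59% (17 of 198), 1.08% (2 of 185) and 3.70% (18 of 486), a 7.94-fold fall (1.89 to 70.9). After thinning to 5000 UMIs both falls had intervals that included no change, and thinned to 1500 UMIs the Arg1 log2 ratio changed sign, to 0.10 from −2.99. Without the shared barcodes the shares were 6.42%, 1.49% and 9.38% for Pf4 and 3.93%, 0.568% and 3.36% for Arg1.

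Some dividing macrophage barcodes also carried T cell RNA. Of the 20, 3 and 32 dividing Pf4 barcodes, 6, 2 and 4 had 2 or more Cd3 UMIs, and of the 17, 2 and 18 dividing Arg1 barcodes 8, 1 and 2 did. All 20 dividing Pf4 barcodes of day 3 and 28 of 32 at day 14 had 2 or more UMIs of the macrophage genes C1qa, C1qb and C1qc. Without barcodes of 2 or more Cd3 UMIs the Pf4 shares were 12.3%, 1.45% and 9.76% and the Arg1 shares 4.97%, 0.578% and 3.43%, so that day 7 stayed lowest in both. At day 7 each of these shares rests on 1 dividing barcode. Before that step 10, 2 and 16 dividing barcodes stood in both gates, so the gates are not separate observations.

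In Pf4 macrophages 23 members were lower and none higher at day 7 than at day 3, against 11.2% and 6.03% of all genes, and 11 were higher and 1 lower at day 14 than at day 7, against 6.07% and 7.6%. Ube2c was at 81.4, 13.5 and 45.7 CPM and Mki67 at 59.2, 23.4 and 31.9 CPM. In Arg1 macrophages 30 members were lower and none higher at day 7 than at day 3, against 14.2% and 5.34%, and 14 were higher and none lower at day 14 than at day 7, against 5.91% and 6.7%. Mcm5 was at 29.1, 3.80 and 11.5 CPM, and its day 7 level was 7.64-fold below day 3 (3.88 to 17.2). Dut, which clears dUTP from the nucleotide pool, was at 61.8, 12.7 and 15.8 CPM. The 4 members of this gate that did not meet the rule were Hmgb2, Cenpa, Cks2 and Aurka. Hmgb2 was at 322, 276 and 241 CPM and Cenpa at 84.4, 90.5 and 66.2 CPM. Over all genes the median log2 ratio from day 3 to day 7 was −0.11 in Pf4 and −0.16 in Arg1 macrophages, against −1.11 and −1.80 over the members.

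These macrophage values rest on few barcodes. At day 7 the 3 dividing Pf4 barcodes held 47.8% of the S and 56.8% of the G2/M UMIs, and 1 barcode held 35.7% of the latter. The S sum fell by 0.57 on the log2 scale in Pf4 and by 1.32 in Arg1 macrophages from day 3 to day 7, and the G2/M sum by 0.73 and 0.77. Without the shared barcodes the S ratios were 0.00 and −0.60 and the G2/M ratios 0.26 and 0.00. The counts of lower members were then 0 in Pf4 and 7 in Arg1 macrophages, against 6.03% and 7.84% of all genes. From day 7 to day 14, 10 were then higher in each, against 5.74% in Pf4 and 6.87% in Arg1 macrophages.

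**Figure D5:**
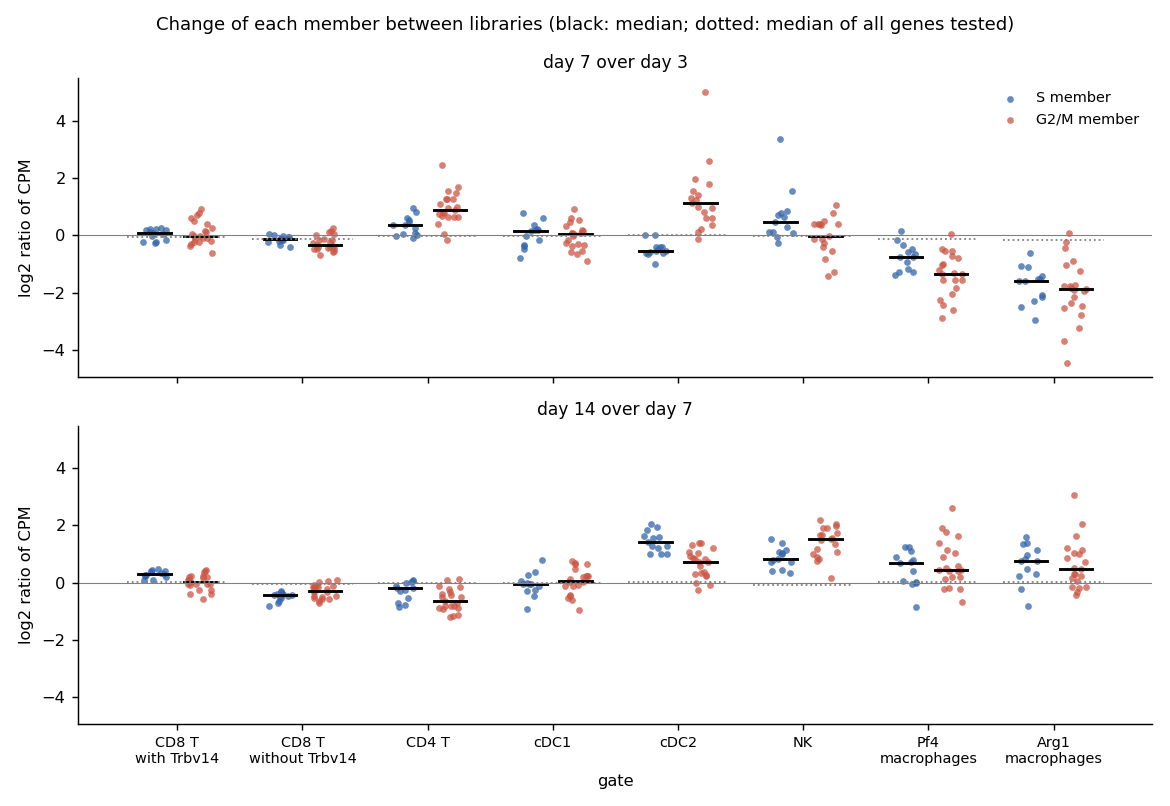
log2 ratio of CPM (y axis) of each tested member between libraries, day 7 over day 3 above and day 14 over day 7 below, by gate (x axis), with the S and G2/M medians as black bars and the median of all tested genes dotted. In the lower panel all tested NK members lie above 0 and cDC2 members centre on 1.004; in the upper panel members centre on −1.11 in Pf4 and −1.80 in Arg1 macrophages.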

How the data were processed

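RNA of CD45+ tumour cells was counted in 3 libraries, 1 per day. The deposited values are whole UMI counts per gene and barcode, and the submitters' processing notes name Cell Ranger 4.0.0 and the mm10 build. The labels name a cell sorter in one place and magnetic beads in another. The members and lists were chosen with earlier results of these data known. Barcodes under 1500 UMIs were left out, and no doublet caller was run. UMIs were summed by gate and library and divided by the gate's total to give CPM. Ratios were called at 1.5-fold with a 95% interval excluding 1 among genes with at least 20 UMIs, and no p-value was computed. Thinning drew 5000 UMIs per barcode and left out shallower ones. All members could be named. Regulators and other S and G2/M genes were named up to 4 per gate and comparison by the interval bound farthest from 0, and 10 further genes by their lowest ratio in dividing over other CD8 T barcodes. Python 3.11.15, numpy 2.4.6, scipy 1.17.1 and pandas 2.3.3 were used, with edgeR 4.0.16 in R 4.3.3 for TMM (trimmed mean of M values) factors only. The interval code was tested on simulated data. Leaving out shared barcodes from the member counts, leaving out smaller copies, gating after thinning, leaving out Cd3-bearing barcodes and the depth bins were chosen after seeing the data.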

Additional observations from a re-analysis of the deposited data

Results flagged for a closer look

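The share of dividing barcodes from day 7 to day 14 went opposite ways in the CD8 T gates. Its log2 ratio was 0.53 with Trbv14 and −0.55 without, in 1 library per day, and the difference between them was not tested. After thinning to 5000 UMIs the ratios were 0.56 and −0.34, after thinning to 1500 UMIs −0.12 and −0.53, and without the shared barcodes 1.18 and −0.09.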

How the results depend on the processing

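Of 168 share ratios recomputed under alternatives, 156 stayed within the interval of the reported value. Of the ratios of summed CPM, 41 of 54 for S and 35 of 60 for G2/M members did, and 121 of 170 counts of members stayed within 1.5 times. Some share intervals are wide, such as −6.15 to −0.91 in Arg1 macrophages from day 3 to day 7. Staying within one does not show that a result was kept. All 16 share ratios thinned to 5000 UMIs stayed within. Yet in NK barcodes from day 7 to day 14 the ratio went from 1.45 to 0.66 (−1.06 to 2.22), which includes no change. Both macrophage falls to day 7 then had such intervals too. For CD8 T barcodes without Trbv14, day 14 over day 3 still excluded no change (−1.19 to −0.09). The cause of each change below was not tested. No paired analysis was possible because each day has 1 library. All ratios here are log2.

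Thinned to 1500 UMIs, where few barcodes are called, the share ratio changed sign in Arg1 macrophages from day 3 to day 7 (0.10) and in CD8 T barcodes with Trbv14 from day 7 to day 14 (−0.12). From day 3 to day 7 it was 1.65 in CD4 T, 1.37 in NK and −1.60 in cDC1 barcodes, and from day 7 to day 14 2.24 in cDC1 barcodes and −0.39 in Arg1 macrophages. Gated after thinning to 5000 UMIs, cDC1 barcodes gave −0.94 from day 3 to day 7.

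Without the shared barcodes the share ratio from day 7 to day 14 was 1.18 in CD8 T barcodes with Trbv14, 1.61 in cDC1 and 2.71 in cDC2 barcodes, and −0.91 in cDC1 from day 3 to day 7. The S and G2/M sums from day 7 to day 14 gave 0.91 and 0.70 in CD8 T barcodes with Trbv14, −0.078 and 0.29 without and 1.20 and 1.43 in NK barcodes, with 1.99 for G2/M in cDC2. From day 3 to day 7 they gave 0.00 (0.0049) and 0.26 in Pf4 and −0.60 and 0.00 (0.0033) in Arg1 macrophages, so that both Pf4 sums, the Arg1 G2/M sum and the G2/M sum without Trbv14 changed sign.

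Without the shared barcodes the members higher and lower from day 3 to day 7 numbered 1 and 12 in CD8 T barcodes with Trbv14, 0 and 12 without, 8 and 0 in CD4 T, 1 and 8 in NK, 0 and 17 in cDC1, 0 and 11 in cDC2, 2 and 0 in Pf4 and 0 and 7 in Arg1. From day 7 to day 14 they numbered 28 and 0 with Trbv14, 9 and 0 without, 2 and 2 in CD4 T, 18 and 0 in cDC1 and 10 and 1 in Arg1. Without Trbv14 from day 3 to day 14, 5 were lower. The shares of all genes for these counts stand beside them in the Results, with some left out. No share is given for the 1 higher with Trbv14, the 2 higher in Pf4 and the 1 lower in Arg1. Several counts of 0 have none either, so all these cannot be read against all genes.

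With barcodes of more than 1 lineage left out, S and G2/M sums from day 7 to day 14 gave −0.37 and −0.21 in CD8 T barcodes without Trbv14, and G2/M 1.36 in cDC2. From day 3 to day 7 they gave −0.84 and −0.36 in Arg1, and S −0.80 in Pf4. As a mean of CPM per barcode, S and G2/M gave 0.54 and 0.38 in CD8 T barcodes with Trbv14, 0.48 and 0.66 in NK, −0.31 and −0.49 in Pf4 and −0.75 and −0.16 in Arg1, and G2/M gave −0.23 without Trbv14 and 0.68 in cDC2. Without the top barcode S gave −0.85 and G2/M −1.18 in Pf4, and G2/M −0.97 in Arg1 and 0.72 in cDC2. Without Hmgb2 and Stmn1, G2/M gave −1.19 in Arg1, −1.23 in Pf4, 1.14 in NK and −0.24 in CD8 T barcodes without Trbv14, where a total without mitochondrial and ribosomal genes gave −0.25. TMM scaling gave −0.62 for G2/M in Arg1 and −0.032 in CD8 T barcodes with Trbv14.

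The share of all genes under the rules below is not given here, so a changed count can reflect the rule as well as the members. Under TMM scaling 1 member was lower from day 7 to day 14 and 0 from day 3 to day 7 with Trbv14, and 9 were lower from day 3 to day 14 and 0 to day 7 without. At a 2-fold threshold the higher members numbered 0 with Trbv14, 8 in CD4 T, 3 in NK and 0 in cDC1 from day 3 to day 7, and 9 in Arg1 and 0 in cDC1 from day 7 to day 14. The lower ones numbered 0 in both CD8 T gates, cDC1 and cDC2 from day 3 to day 7, 3 in CD4 T and 0 without Trbv14, in cDC1 and in Pf4 from day 7 to day 14, and 1 without Trbv14 from day 3 to day 14. With at least 100 UMIs per gene, which tests fewer members, the higher ones numbered 5 in cDC2 from day 3 to day 7, and 8 in Arg1 and 1 in cDC1 from day 7 to day 14. The lower ones numbered 14 in Arg1, 13 in Pf4 and 0 in cDC1 and cDC2 from day 3 to day 7, and 0 in Pf4 from day 7 to day 14.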
